A study of Homo sapiens with 2 samples.

Results

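The mitosis genes are 36 genes linked to the condensation and division of chromosomes, described here in OVCAR5 cells exposed to interferon-gamma. The members were taken by symbol from the feature list of the deposited matrix, and 36 of 36 were found among 36601 genes. All 36 held at least 2000 UMIs (unique molecular identifiers, 1 per captured RNA molecule) in the cells used, as 7566 genes did. The list was chosen with earlier results of these data known.

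OVCAR5 is an established ovarian carcinoma line. The cells carried an IFNy-sensing reporter and were CFP+, in the unstimulated controls as in the stimulated cells. The labels list 18 conditions in 1 pool. These were unstimulated cells and cells given IFNy at 1, 10 or 100 ng/ml, each for 2, 6, 12 or 24 h, and frozen cells of the 24 h unstimulated and the 24 h 100 ng/ml conditions. The pool gave 1 gene expression library and 1 library of antibody hashtags, joined in 1 matrix of 7804 barcodes. Cells carried pairs of the 8 hashtags, and 18 pairs could be read in 100 cells or more, but no source used here ties a pair to a condition. No value below is therefore assigned to a dose, a time or freezing, and the pool is 1 unreplicated sample, so no p-value was computed.

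Cells were kept with 500 genes or more and a mitochondrial share of 20% or less, which left 7201 of 7804 barcodes. A hashtag pair could be read in 6114 of them, 166 to 493 cells in each pair, and the median cell of a pair held 27824.5 to 32945 UMIs. Among the 7201 cells, KRT18, an epithelial keratin, was found in 99.9% and EPCAM in 69.6%. PAX8 was found in 10.5%, MUC16 in 0.208% and CDH1, the epithelial cadherin, in 1.78%. The T cell list summed to 84 UMIs with CD3E, CD3G and CD2 at 0, the B cell list to 57 with MS4A1 at 0, and the endothelial and fibroblast lists to 66 and 171. The myeloid list summed to 8191, of which the lysosomal gene CD68 held 6913 and CD14 1121. CD14 was found in 13.4% of cells, while TYROBP was at 0 UMIs and PTPRC at 2.

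Entry into mitosis is driven by the kinase CDK1 bound to cyclin B, helped by the Aurora, Polo and NEK kinases. The spindle checkpoint, with BUB1, BUB1B and TTK, holds the anaphase-promoting complex and its activator CDC20 in check until every kinetochore is attached. Kinesins and microtubule-binding proteins build the spindle, the chromosomal passenger complex corrects attachments, and anillin and KIF23 serve cytokinesis. Transcripts of these genes accumulate in G2 and M phase and are low in G1, so that a culture of cycling cells holds both kinds of cell at once. Interferon-gamma is known to slow the division of many carcinoma lines.

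The 36 genes together made up 4213 CPM (UMIs of the genes per 1000000 UMIs of all genes, interval 4204 to 4222) of the paired cells, or 800454 UMIs. All intervals here are 95% intervals and cover counting error only. They are exact, except that those of list folds averaged over pairs are approximate. By hashtag pair, the list total ran from 2878 CPM (2847 to 2909) in the pair of hashtags 3 and 4, written 3+4, to 5286 CPM (5242 to 5331) in 5+7. This is a span of 1.84-fold (1.81 to 1.86). In ascending order the pairs were 3+4, 2+8, 1+2, 2+6, 1+4, 1+6, 2+4, 1+3, 5+6, 6+8, 4+7, 3+7, 5+8, 7+8, 3+5, 2+5, 1+5 and 5+7, and the intervals of 6 of the neighbouring pairs in this order overlapped. In pooled UMIs, fewer cells with mitosis transcripts and less of them per cell cannot be told apart.

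Counts per cell add to this. Each cell was thinned at random to 10000 UMIs, so that cells of different depth could be compared, and 5956 cells had that many. The median cell then held 9 to 18.5 mitosis UMIs in 8 pairs and 33 to 39 in the other 10, with no pair between 18.5 and 33. The 8 were also the 8 lowest pairs by CPM, with at most 3907 CPM against at least 4083 CPM. Pairs were set in this order by the measured list itself, so the split is a description. At the upper end of the cells the pairs overlapped. The 90th percentile of cells held 73 to 101 mitosis UMIs in the 8 pairs and 78.6 to 110.5 in the 10, while the 25th percentile held 2 to 6 against 11 to 20.

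**Figure D1:**
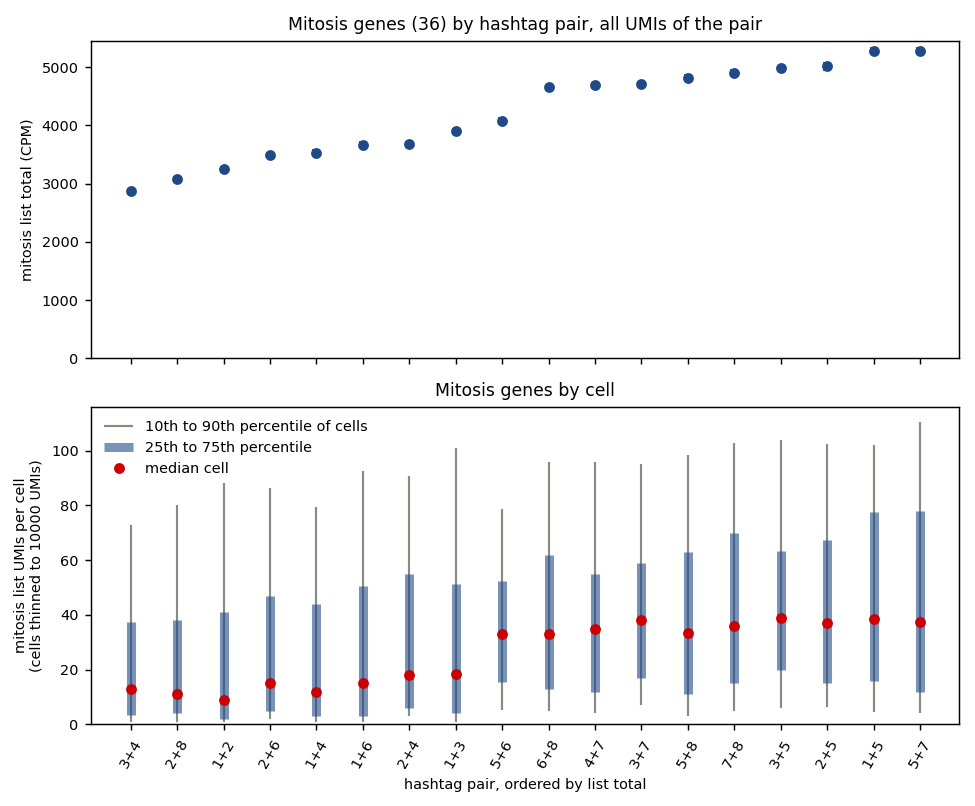
Mitosis list total in CPM (upper panel, with exact 95% Poisson intervals, mostly smaller than the points) and mitosis UMIs per thinned cell (lower panel; points are the median cell, thick bars the 25th to 75th and thin bars the 10th to 90th percentile) in each of 18 hashtag pairs, ordered by list total. Medians sit at 18.5 or below in 8 pairs and at 33 or above in 10, while the upper ends of the thin bars overlap.

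The share of cells with at least 10 mitosis UMIs gave the same 8 and 10 pairs, but another order within them. It was lowest in 1+2 at 49.8% (44.2 to 55.4%) and at most 65.4% in the 8 pairs, and it ran from 76.1% in 5+8 to 86.3% in 3+5 in the other 10. In 5+7, the highest pair by CPM, it was 78.8%. A limit of 5, 20 or 40 UMIs, like that of 10 chosen after the data were seen, left the same 8 pairs below the same 10. The UMIs were also more concentrated in the 8 pairs, where the 10% of cells with the most held 34.0 to 42.3% of the list total, against 25.7 to 29.7%.

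High and low levels of IRF1 were present at both ends of this order by CPM. IRF1, an early interferon-responsive transcription factor, stood at 57.9 CPM in 1+2 and at 1058 CPM in 3+4, both at the low end of the mitosis list. At the high end it stood at 70.8 CPM in 5+7 and at 1044 CPM in 7+8, where the mitosis list was at 5286 and 4906 CPM. CD74, the invariant chain of MHC class II, stood at 20.1 CPM in 1+2 and 183 CPM in 3+4, and at 19.5 CPM in 5+7 and 1278 CPM in 7+8. It differed from IRF1 in that it was at most 208 CPM in all 8 lowest pairs, while every pair at 592 CPM or above was among the other 10.

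By list total, other cell cycle lists differed less or in another order. The 69 other mitosis genes ran from 5288 CPM in 3+4 to 7429 CPM in 1+5, a 1.40-fold span (1.39 to 1.42). The S phase list, 39 genes of DNA replication, ran from 1943 CPM in 1+4 to 2810 CPM in 3+5, 1.45-fold. The 20 histone genes, transcribed mainly during replication, spanned 2.27-fold, from 510 CPM in 2+8 to 1159 CPM in 3+5. The growth arrest list, which holds cyclin-dependent kinase inhibitors and also D-type cyclins, was lowest in 5+7 at 977 CPM and highest in 1+2 at 1436 CPM. The cyclin CCND1 weighs most in it, with 103762 UMIs against 2738 for CDKN2C, the inhibitor with the most. The list total thus does not give the level of the inhibitors. The 12 housekeeping genes spanned 1.11-fold.

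Every member spanned at least 1.5-fold between its lowest and its highest pair, with a median of 1.97 over the 36 against 1.53 over all genes tested. At least 2-fold was reached by 15 of 36 members, and by 17.6% of the 7530 genes outside the list that had at least 2000 UMIs. Of the 67 other mitosis genes tested 18 reached 2-fold, with a median span of 1.75, and of 34 S phase genes 3 did. Without cells above 1.5 times the median UMIs of their pair, 24 members reached 2-fold. The lowest pair was 3+4 for 26 members, 1+2 for 5 and 2+8 for 5. The highest pair was 1+5 for 12 members, 5+7 for 10, 2+5 for 6 and 3+5 for 4. Levels are compared within a gene, since the 3' counts were not corrected for differences between genes.

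Among the mitotic kinases and cyclins, CCNB1, the main cyclin B of mitotic entry, stood at 143 CPM in its lowest pair, 196 CPM in the median pair and 253 CPM in its highest, a 1.76-fold span (1.65 to 1.88). AURKA, the centrosomal Aurora kinase, ran from 118 over 171 to 233 CPM. CCNB2, the other B-type cyclin, ran from 76.8 over 109 to 149 CPM. CDK1 had the narrowest span of all members, 59.5 to 92.5 CPM or 1.55-fold (1.41 to 1.72), and NEK2, a kinase of centrosome separation, one of the widest, 13.8 to 34.9 CPM or 2.53-fold (2.07 to 3.10). The pair 1+5 held the highest CCNB1 and NEK2, but 4+7 the highest CDK1. PLK1, the Polo kinase, spanned 1.87-fold.

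In the spindle checkpoint and anaphase-promoting complex group, UBE2C, the ubiquitin-conjugating enzyme of that complex, ran from 239 CPM in 3+4 over a median pair of 359 to 442 CPM in 3+7. CDC20, its activator, ran from 132 over 197 to 228 CPM. BUB1, a checkpoint kinase, ran from 44.4 CPM in 1+2 over 80.1 to 102 CPM in 1+5, a 2.31-fold span (2.05 to 2.60), the widest of this group. BUB1B, TTK and CDCA3 spanned 1.98-, 2.15- and 1.88-fold.

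At the centromere, CENPF, a large kinetochore and nuclear matrix protein, had the widest span of the 36. It stood at 141 CPM in 3+4, 240 CPM in the median pair and 358 CPM in 1+5, a 2.55-fold span (2.39 to 2.71). NDC80, a microtubule-binding subunit of the outer kinetochore, ran from 44.1 over 82.5 to 101 CPM, and CENPE, the kinetochore kinesin, from 48.7 over 76.0 to 106 CPM. NUF2, the partner of NDC80, spanned 2.03-fold and the centromeric histone variant CENPA 1.75-fold. In the passenger complex, BIRC5 (survivin) ran from 183 over 230 to 298 CPM, AURKB, its kinase, from 39.4 over 60.3 to 70.7 CPM, and CDCA8 (borealin) from 30.9 over 45.7 to 59.0 CPM. Their spans of 1.63, 1.80 and 1.91-fold lay below the median of the list.

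Of the kinesins, KIF23 of the central spindle ran from 62.0 over 94.2 to 109 CPM, KIF20B from 58.6 over 81.9 to 106 CPM and the microtubule depolymerase KIF2C from 28.0 over 42.8 to 65.9 CPM. KIF11, which pushes spindle poles apart, spanned 2.18-fold and the chromokinesin KIF4A 1.80-fold. Among spindle proteins, TPX2, the activator of AURKA, ran from 186 over 289 to 358 CPM, HMMR from 145 over 216 to 281 CPM and NUSAP1 from 93.9 over 152 to 216 CPM. DLGAP5, FAM83D, GTSE1 and CKAP2 spanned 2.1-, 2.09-, 2.15- and 1.97-fold. TOP2A, the topoisomerase that untangles sister chromatids, had the most UMIs of all members, 70973, and ran from 215 CPM in 3+4 over 389 to 483 CPM in 7+8. MKI67, which coats mitotic chromosomes, ran from 152 over 239 to 279 CPM, ANLN (anillin) from 101 over 171 to 202 CPM, and the DNA helicase PIF1 spanned 2.36-fold.

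**Figure D2:**
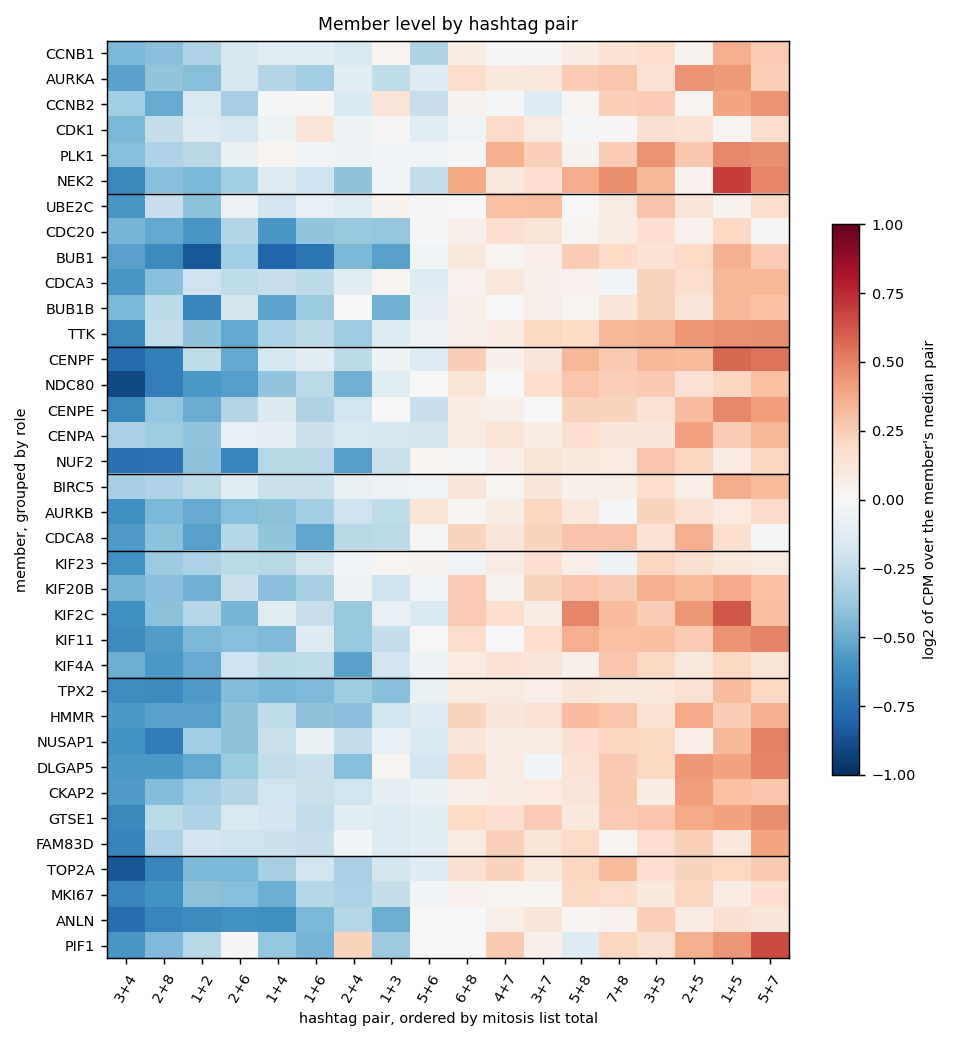
Level of each of the 36 members (rows, grouped by role with black lines between groups) in each of 18 hashtag pairs (columns, ordered by list total), as log2 of CPM over the median of that member's 18 values. The leftmost column, 3+4, is the lowest for 26 members, with CENPF at 141 CPM there and 358 CPM in 1+5, and CDK1 changes least from left to right.

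Shares of cells ranked the pairs partly as the levels did. The pair with the lowest share was also the lowest by CPM for 20 of 36 members, and the highest for 17. In thinned cells, TOP2A was found in 44.5% of cells of the lowest pair and 77.8% of the highest, UBE2C in 43.9 to 77.2%, and BIRC5, the member found most widely, in 61.1 to 86.2%. TTK was found in 7.17 to 21.0% and PIF1 in 8.36 to 21.8%. Without thinning, the share in the median pair was 84.1% for TOP2A, 79.6% for UBE2C and 36.6% for TTK. No cell type of the pool is known to lack these genes, so a background share from free RNA could not be read. In the 361 barcodes under the gene minimum the list held 451 UMIs, which is 363 CPM of all their UMIs and 3488 CPM of those outside mitochondrial genes.

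Across cells of a pair the members moved with each other. Over the 630 pairs of members, the median Spearman rho of thinned counts, itself the median over the 18 hashtag pairs, was 0.363, and none of the 630 was negative. It was highest for UBE2C with TOP2A at 0.717, CENPF with TPX2 at 0.674 and CENPF with HMMR at 0.669. It was lowest for CDK1 with CCNB2 at 0.0730 and CDK1 with CDC20 at 0.0872. These cells share 1 library, and the values describe it. Against the sum of the other 35 members, CENPF and TPX2 reached 0.79, HMMR 0.77 and TOP2A 0.75, while the sparse TTK reached 0.36.

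Of the 7530 genes outside the list, those most like it across cells were TUBB4B at a median rho of 0.710, PRC1 at 0.693, UBE2S at 0.692, HMGB2 at 0.678, SMC4 at 0.656, ASPM at 0.645, CKS2 at 0.637, TUBA1C at 0.631, KPNA2 at 0.628 and ARL6IP1 at 0.619. The median gene stood at 0.0089. Of these 10, 7 are in the list of other mitosis genes; TUBB4B and TUBA1C are tubulins. At the opposite end stood the mitochondrial gene MT-CO1 at -0.33 and the ferritin chain FTH1 at -0.29, with ISG15 at -0.26, IFITM3 at -0.26 and GBP2 at -0.25 among the 10 lowest.

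Because the members moved together across cells, their promoters are shown with 2 motifs known from cell cycle genes, the CHR element (TTTGAA or TTTAAA), bound by the complexes that restrict transcription to G2 and M phase, and the CCAAT box, bound by NF-Y. The table of RefSeq promoters for GRCh38.p14 holds 250 bases before to 50 after each start, and 30 of 36 members matched. AURKA, TTK, UBE2C, BIRC5, TPX2 and FAM83D did not. Searched on both strands (TTCAAA and ATTGG are the reverse complements of TTTGAA and CCAAT, and TTTAAA is its own), a CHR was present in 26 of 30 member promoters (86.7%) and in 24.0% of all 35116 promoters of the table. CCAAT was present in 23 of 30 (76.7%) against 34.6%, and both in 20 of 30 (66.7%) against 9.27%. The interferon-gamma activated site (GAS, TTCNNNGAA) was present in 2 of 30 (6.67%) against 7.66%. Of the 56 other mitosis genes matched, 69.6% held a CHR and 69.6% a CCAAT box. Within 70 bases before the start, a stretch chosen after the positions were seen, a CHR was present in 20 of 30 members (66.7%) and in 6.197% of all promoters, and CCAAT in 18 members and in 12.5% of all promoters. A match is a description of letters, not a binding site.

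The 200 bases before the start are shown for 4 members with both motifs and for CKAP2, the 1 matched member with neither, each on the strand of its gene with CHR and CCAAT matches in capitals. Members with only 1 of the motifs, such as AURKB with a CCAAT match and no CHR, are not shown. CCNB1 lies at chr5:69166950-69167149 (plus strand), CDC20 at chr1:43358781-43358980 (plus), CENPF at chr1:214602995-214603194 (plus), TOP2A at chr17:40417897-40418096 (minus) and CKAP2 at chr13:52455788-52455987 (plus). CCNB1 holds 1 CHR and 2 CCAAT matches in this stretch, CENPF 1 and 3, and TOP2A 2 and 3.
CCNB1: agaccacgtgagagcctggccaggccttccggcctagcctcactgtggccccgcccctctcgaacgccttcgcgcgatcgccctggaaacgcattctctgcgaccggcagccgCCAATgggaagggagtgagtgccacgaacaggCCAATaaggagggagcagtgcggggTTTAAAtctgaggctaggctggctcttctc
CDC20: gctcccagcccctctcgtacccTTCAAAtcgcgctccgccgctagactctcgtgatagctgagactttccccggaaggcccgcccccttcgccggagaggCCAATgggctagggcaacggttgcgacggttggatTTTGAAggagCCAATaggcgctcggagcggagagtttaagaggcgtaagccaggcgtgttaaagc
CENPF: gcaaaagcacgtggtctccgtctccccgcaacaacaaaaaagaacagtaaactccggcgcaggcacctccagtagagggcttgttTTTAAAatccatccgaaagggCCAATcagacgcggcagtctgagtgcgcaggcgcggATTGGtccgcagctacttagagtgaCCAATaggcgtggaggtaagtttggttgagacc
TOP2A: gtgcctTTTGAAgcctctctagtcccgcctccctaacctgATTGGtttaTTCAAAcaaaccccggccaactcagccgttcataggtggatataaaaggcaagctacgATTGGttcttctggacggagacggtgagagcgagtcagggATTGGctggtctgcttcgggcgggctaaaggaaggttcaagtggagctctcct
CKAP2: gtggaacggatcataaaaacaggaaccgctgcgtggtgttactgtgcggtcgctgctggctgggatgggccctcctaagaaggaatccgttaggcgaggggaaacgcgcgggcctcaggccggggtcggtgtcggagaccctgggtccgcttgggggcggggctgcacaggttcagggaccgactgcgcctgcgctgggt

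Cells were then ranked within each pair by their thinned mitosis list total. The top 25% are called mitosis-high and the bottom 25% mitosis-low, and each gene's CPM was averaged over the pairs with equal weight in both. A gene was called higher or lower when the smaller of both levels was at most 80% of the larger and at least 80% of the pairs with 10 or more of its UMIs went that way. The ranking used only the 36 members, so the members themselves are no result here. Of the 7530 other genes, 9.47% were lower and 18.6% were higher in mitosis-high cells, with a median fold of 1.04. Mitosis-high cells were also deeper, 36389 against 26668 UMIs in the median pair, 1.23- to 1.5-fold in every pair, and had 10.8% against 12.5% mitochondrial UMIs. The part of depth in the folds below was not tested beyond the alternative without the deepest cells.

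Of 102 interferon genes tested over 9 lists, 22 were lower in mitosis-high cells, none was called higher and 80 were not called. The antiviral list held 15 of the 22, and outside it 7 of 68 were lower (10.3%), close to the background share of 9.47%. With the median of gene ratios as denominator 35 were lower, 19 of the 68 outside the antiviral list, where the background share was 14.3%. In the antiviral list 15 of 34 tested members were lower, and the list total was 5076 CPM against 6442 CPM, a fold of 0.788 (0.784 to 0.792), lower in 17 of 18 pairs. ISG15, the ubiquitin-like modifier, stood at 970 CPM against 1311 CPM (fold 0.740, lower in 15 pairs). IFI27 stood at 618 against 895 CPM (0.691, 18 pairs). IFITM3, which blocks virus entry at endosomes, stood at 569 against 864 CPM (0.658, 18 pairs). IFI44L had the lowest fold of the list, 0.459, lower in 16 of the 16 pairs that could be counted. IFITM1 at 0.578, TRIM22 at 0.598, OAS1 at 0.606, IFITM2 at 0.631 and IFI35 at 0.774 were also lower in every pair counted.

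Not all antiviral genes followed. IFIT3, the antiviral gene with the next most UMIs, had a fold of 1.13, above 1 in 12 of 18 pairs. The fold of IFIT1, which binds viral RNA, was 1.46, above 1 in 14 of 18 pairs, that of OASL 1.62 in 14 pairs and that of HERC5, the ligase for ISG15, 1.85 in 13 pairs. These 3 fell short of the 80% of pairs and were named after their values were seen. Their folds ranged widely between pairs, for OASL from 0.403 to 7.52.

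**Figure D3:**
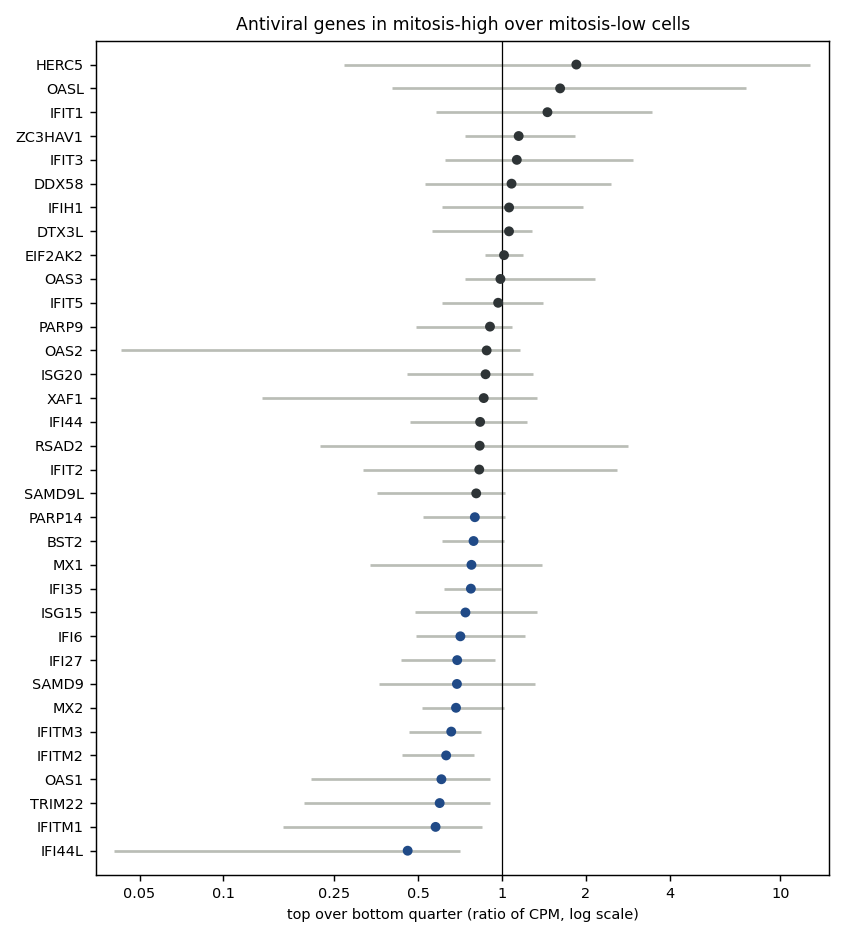
CPM in the 25% of cells with the most over the 25% with the fewest mitosis UMIs (log scale) for the 34 antiviral genes tested. Points are the ratio of means over hashtag pairs, grey lines the lowest to highest pair and blue points genes called lower; IFI44L lies lowest at 0.459, and HERC5, OASL and IFIT1 lie above 1 in black, as uncalled.

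None of 19 MHC class I genes, which serve antigen presentation, reached the limit, although the list total was lower in 18 of 18 pairs with a fold of 0.881 (0.878 to 0.885). B2M, the class I light chain, stood at 3093 against 3724 CPM (0.831) and the proteasome activators PSME1 and PSME2 at folds of 0.830 and 0.869, each below 1 in 18 of 18 pairs. The chaperone CALR had a fold of 1.05. In MHC class II 2 of 9 were lower, HLA-DRA at 0.777 and HLA-DMA at 0.795, and CD74 at 0.859 was not.

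Of 5 guanylate-binding proteins 2 were lower, GBP2 at 69.7 against 173 CPM (0.403, 18 of 18 pairs) and GBP1 at 0.745. GBP4 was at 0.982, and GBP5 at 1.246 was above 1 in 9 of 14 pairs and not called. The chemokine list had the lowest list fold, 0.538 (0.523 to 0.553), with CXCL11 lower at 0.625 and CXCL10 at 0.447 but below 1 in only 14 of 18 pairs. CXCL9 at 0.644 and CXCL8 at 2.28 were not called, and CXCL8 was above 1 in 8 of 11 pairs. IDO1 and WARS, enzymes that use tryptophan, had folds of 0.861 and 0.807 and were not called. Of the 15 transcription factors 1 was lower, CIITA at 0.641, whereas IRF1 stood at 0.820. Of the 6 receptor and kinase genes 1 was lower, IFNGR1 at 0.666, and of 6 negative regulators none.

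Other lists gave the frame for these values. All 67 other mitosis genes tested were higher, with a median fold of 6.08. The S phase list was split, with 8 of 34 higher and 6 lower. RRM2, a subunit of ribonucleotide reductase, was higher at 5.75 and thymidylate synthase TYMS at 2.76, while the origin licensing gene CDC6 was lower at 0.448, MCM6 at 0.397 and CCNE2, a cyclin of the G1 to S transition, at 0.267. PCNA and MCM4 at 0.852 and 0.621 were not called. Of 13 growth arrest genes 4 were higher, among them the inhibitors CDKN2C at 3.03 and CDKN1B at 1.75, and the kinase PLK2 was lower at 0.666, while the fold of CDKN1A was 1.21. Of 5 epithelial markers tested 3 were lower, KRT8 at 0.709, KRT18 at 0.756 and KRT19 at 0.721, while KRT7 at 0.977 and EPCAM at 0.882 were not called, so lower levels in mitosis-high cells were not confined to interferon genes.

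The reverse ranking used no member. Cells of each pair were ranked by each interferon list and the mitosis genes were compared between the top and the bottom 25%. In antiviral-high cells 36 of 36 members were lower, beside a background of 13.4%. Their folds ran from 0.543 for PLK1 to 0.747 for BUB1 with a median of 0.640, against 0.967 over all genes tested. The list total was 3304 against 5138 CPM, a fold of 0.643 (0.639 to 0.647), lower in 17 of 18 pairs. CDK1 stood at 60.4 against 107 CPM (0.566) and was lower in 18 of 18 pairs, NUF2 at 36.7 against 62.1 CPM (0.591) in 18 pairs, TOP2A at 295 against 451 CPM (0.655) in 17 pairs and UBE2C at 277 against 459 CPM (0.603) in 16. Medians of the role groups ran from 0.601 for the centromere to 0.689 for the kinesins. Between the top and bottom 10% of cells, in place of 25%, 20 of 36 were lower.

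Antiviral-high cells were shallower, with a median of 28542.5 against 32735 UMIs. Beside the members, 56 of 67 other mitosis genes, 16 of 34 S phase genes and 5 of 7 histone genes were lower, while 1 of 11 housekeeping genes was. The part of depth in these folds was not tested beyond the alternative without the deepest cells, where the list fold was 0.649.

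The fold differed widely between pairs. It was lowest in 2+8, where the mitosis list stood at 1309 CPM in antiviral-high and 4511 CPM in antiviral-low cells, a fold of 0.290 (0.279 to 0.302), and it was above 1 only in 5+8, at 1.03 (1.00 to 1.06). The 8 pairs with the lowest mitosis list totals held the 8 lowest folds, 0.290 to 0.555, and the other 10 pairs held 0.673 to 1.03. Totals and folds, here and in the rankings below, use the same mitosis UMIs, so their common order is a description. Among those 8, IRF1 was low in 1+2 (57.9 CPM) and 2+4 (43.7 CPM), where the folds were 0.524 and 0.555. In the rest of the 8, IRF1 stood at 1012 CPM or above, and the folds ran from 0.290 in 2+8 to 0.543 in 3+4. Folds below those of the other 10 pairs were thus present at both levels of IRF1.

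**Figure D4:**
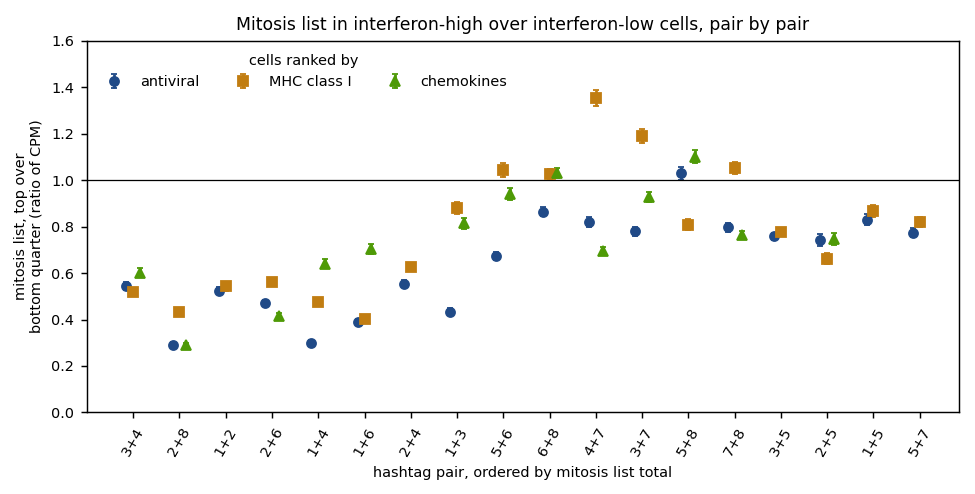
Mitosis list CPM in the 25% of cells with the most over the 25% with the fewest UMIs of an interferon list, for 3 interferon lists, in each hashtag pair ordered by mitosis list total; bars are exact 95% intervals for counting error. With antiviral ranking the 8 leftmost pairs lie at 0.555 or below and the others at 0.673 or above, and with MHC class I ranking 5 pairs lie above 1.

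Other interferon lists gave smaller or mixed differences. In MHC class I-high cells 13 of 36 members were lower, beside 12.5% of other genes, and the list fold was 0.775 (0.770 to 0.780). It was below 1 in 13 pairs, down to 0.402 in 1+6, and above 1 in 5, up to 1.35 in 4+7, and 26 of 34 S phase genes were lower as well. The number of members called was 8 without the deepest cells and 20 with cells thinned to 5000 UMIs. In chemokine-high cells, which could be set apart in 13 pairs, 22 of 36 members were lower beside a background of 1.53%, the list fold was 0.743 (0.737 to 0.749), and 0 of 34 S phase genes were lower. That count was 11 with thinning to 5000 UMIs, where the list fold was 0.802, and 13 without the deepest cells.

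For the remaining 6 lists the counts were small, but several of these lists hold few UMIs per cell. By pair, the receptor and kinase list totalled 182 to 238 CPM. The guanylate-binding and MHC class II lists went down to 44.7 and 58.6 CPM, against at least 2440 CPM for the antiviral list. Cells are ranked less surely by so few UMIs, and the part of this in the counts was not tested. In cells high in the transcription factor list 1 member was lower (background 3.59%), in MHC class II-high cells 1 (1.54%), in cells high in guanylate-binding proteins 1 (3.65%) and in cells high in negative regulators 2, CDK1 and UBE2C (0.213%). With the checkpoint and tryptophan list (1.83%) and with the receptors and kinases (0.0133%) none was. These counts need 80% of pairs in 1 direction, and the list fold differed in direction between pairs. With guanylate-binding proteins it was 0.251 in 1+4, below the lowest antiviral fold, and 0.251 to 0.726 in the 8 pairs with the lowest mitosis totals, against 0.891 to 1.51 in the other 10. With transcription factors it ran from 0.389 in 2+8 to 1.52 in 5+8. No difference between these rankings was tested.

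Ranking by the 20 histone genes, added after the data were seen, split the members. All 34 S phase genes tested were higher in histone-high cells, where 8.44% of other genes were higher and 4.25% lower. Of the 36 mitosis genes 8 were higher and 6 were lower, and the list fold was 1.04 (1.03 to 1.05), with 0.985 under a stricter cell filter and 1.28 without the deepest cells. By pair, the list fold was above 1 in all 8 pairs with the lowest mitosis totals, from 1.01 to 2.18 in 1+2, and below 1 in 8 of the other 10, down to 0.728 in 3+7. CDK1 was higher at 121 against 59.95 CPM (2.02, 18 of 18 pairs), MKI67 at 330 against 170 CPM (1.94, 18 pairs), AURKB at 1.81, KIF11 at 1.78, ANLN at 1.58, NUSAP1 at 1.47, BUB1B at 1.42 and TOP2A at 1.34. CCNB1 was lower at 106 against 246 CPM (0.431, 18 pairs), CCNB2 at 0.532, NEK2 at 0.543, CDC20 at 123 against 222 CPM (0.552, 18 pairs), AURKA at 0.611 and PLK1 at 0.628. Of the 6 kinases and cyclins of mitotic entry, CDK1 was thus higher and the other 5 were lower. Without the deepest cells 18 members were higher and 5 lower, and histone-high cells were deeper, with 35119 against 28248.5 UMIs at the median. The part of depth in these counts was not tested further.

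**Figure D5:**
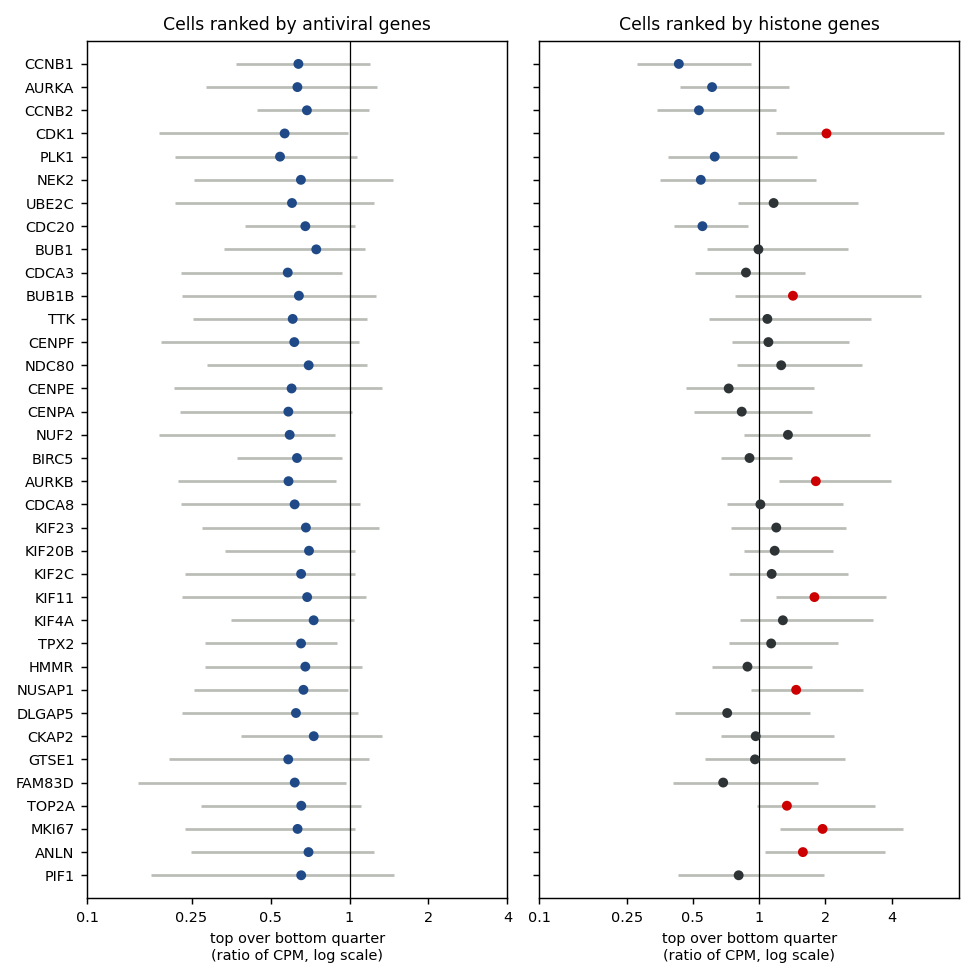
Each member's CPM in the top over the bottom 25% of cells (log scale), with cells ranked by antiviral genes (left) or by histone genes (right); points are the ratio of means over hashtag pairs, grey lines run from the lowest to the highest pair, and blue, red and black mark lower, higher and uncalled. All 36 points are blue on the left, from 0.543 to 0.747, while on the right CCNB1 lies at 0.431 and CDK1 at 2.02.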

How the data were processed

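The 2 libraries of the pool were gene expression and hashtags, prepared with 10X Genomics 3' chemistry per the labels' protocols. As deposited, the matrix gives unnormalised UMI counts for each gene and barcode. The file header names Cell Ranger 5.0.1, the submitters' processing notes Cell Ranger 2.1.1 and GRCh38, and this was not resolved. The rule for calling barcodes as cells is unstated in these sources.

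The members, gene lists and rules were chosen with earlier results of these data known. A pair was read when the second hashtag held at least 5 times the third plus 1 UMI; 1087 cells had none, which removes cells of several pairs but not doublets within a pair, and no other doublet caller was run. Free RNA was not subtracted. CPM are UMIs over the total of all genes. Spans are highest over lowest pair with conditional intervals; shares have Clopper-Pearson intervals. Thinning to 10000 UMIs kept 5956 of 6114 paired cells. Rankings used these thinned counts, with folds from all UMIs. A pair entered an interferon ranking where the top 25% lay wholly above the bottom 25%, and a call needed at least 9 pairs. A planned correlation over pairs of list totals is not given, since the mitosis values fell into separate sets of pairs.

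Named are the 3 members with the most UMIs of each role group, 2 to 4 genes of other lists, interferon genes past the limit with the largest folds, and the 10 genes most like the list; further genes were named after their values were seen, and some items are not reported here. Simulated data were used to check the calculations. Alternatives covered the cell filter, pair rule, denominator, deep cells, thinning, strata and gene minimum. Python 3.11.15, numpy 2.4.6, scipy 1.17.1 and pandas 2.3.3 were used.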

Additional observations from a re-analysis of the deposited data

Results flagged for a closer look

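The mitosis list was also measured in barcodes outside the comparisons. In the 1087 cells without a readable hashtag pair it stood at 4411.32 CPM of the UMIs outside mitochondrial genes (4392 to 4430), against 4743 CPM in paired cells, and the median depth there was 51617 UMIs. In the 603 barcodes that failed the cell filter it stood at 4200.5 CPM on the same scale (4103 to 4300), from 7024 UMIs, with a median of 84.0% mitochondrial UMIs. Both values lie above the level that 3 counts would give, and no cause was tested.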

How the results depend on the processing

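No paired analysis was possible because the series holds 1 pool with no replicate numbers, and no replicate could be left out. Of 216 member spans under 6 alternatives, 200 lay inside that span's counting interval. Other results moved more often. Of 442 folds of named interferon genes and lists in mitosis-high cells, 281 lay inside their counting interval, 160 outside it and 1 changed direction. Of 84 values of the main results, 54 stayed and 30 moved. A main result moved when it left its interval or its spread over pairs, or as a count changed more than 1.5-fold. Among the spans, that of PIF1 moved most, to 2.95-fold without cells above 1.5 times their pair's median UMIs. Without these cells 24 members spanned 2-fold; at a limit of 1.5-fold, 36 did. The list span was 1.88 under the stricter cell filter, 1.80 with the median of gene ratios as denominator and 1.87 without deep cells. Thinned to 5000 UMIs and unthinned, the median share of cells with a member was 27.4 and 64.1% (41.3% at 10000 UMIs) and the median rho between members 0.236 and 0.565 (0.363 at 10000). The 22 interferon genes lower in mitosis-high cells became 35 with the gene-ratio denominator and 10 at a limit of 1.5-fold. In the order stricter filter, UMIs outside mitochondrial genes, gene ratios, no deep cells, no 5% of cells with most antiviral UMIs, thinned to 5000, unthinned and the top and bottom 33.3% or 10% of cells, the antiviral list in mitosis-high cells stood at 0.798, 0.774, 0.748, 0.808, 0.766, 0.798, 0.780, 0.820 and 0.749. The mitosis list in antiviral-high cells stood, for the first 5 of these, at 0.660, 0.651, 0.671, 0.649 and 0.608, and further at 0.659 (33.3%), 0.636 (unthinned) and 0.728 (10%), and at 0.648 under the stricter pair rule; with 10% the members lower were 20. Among the results given here, direction changed in 3 values: the mitosis list in histone-high cells at 0.985 (stricter filter), the mitosis list in cells high in transcription factors at 1.03 (no deep cells) and IFIT3 at 0.994 (no top antiviral cells). Up to 2 interferon genes were called higher under alternatives. The causes were not tested. The limits of 1.5-fold and of 2-fold and the histone ranking were chosen after the data were seen.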
